A study of Mus musculus with 6 samples.

Results

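The interferon-inducible GTPases of the mouse form 2 families, the immunity-related GTPases (Irgm1, Irgm2, Igtp, Ifi47, Iigp1 and Tgtp1) and the guanylate-binding proteins (Gbp2, Gbp3, Gbp6 and Gbp7). These 10 genes were followed in livers of mice fed 6C+4CP and livers of mice fed 10C. A member was every array probe set that the platform annotation gives to exactly 1 of the 10 symbols, which gave 13 of the 45037 probe sets tested. They cover 9 of the 10 genes, because the only probe set of Tgtp1 is annotated to Tgtp2 as well and is not given under either name. The family was chosen by the values of these same 6 arrays, with the difference between the 2 diets in view, so that difference is given below as a description.

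All 6 mice were male BALB/cCrSlc, an inbred strain, 17 weeks old, and had eaten for 10 weeks a low-protein diet built on the purified rodent diet AIN-93M. Mice of the 6C+4CP group ate 4% fish collagen peptide beside 6% casein, and mice of the control group, 10C, ate 10% casein. The drop in casein and the addition of the peptide cannot be told apart here. From the 12 mice fed each diet, 3 with medium food efficiency were taken, and each gave 1 Affymetrix array of a piece of liver removed after 3 h without food.

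Interferons bind receptors that act through Janus kinases on STAT and IRF transcription factors, and interferon gamma is the strongest inducer of both GTPase families. The proteins assemble on the vacuoles in which Toxoplasma gondii, Chlamydia and other intracellular microbes live, and break these vacuoles open. Irgm1, Irgm2 and Igtp are regulators that sit on the cell's own membranes and hold the effectors, such as Iigp1 and Ifi47, inactive there. In mouse liver Iigp1 is also made without interferon, from a promoter of its own that hepatocytes use.

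The stretch before the gene start is shown for the 4 members with the widest gap between the diets and for Gbp7 and Gbp2, whose values were shared by all arrays, because both families are known for binding sites of interferon-activated factors there. Each line is the 110 bases from -110 to -1 before the start annotated by RefSeq (build GRCm38.p6), 5′ to 3′ on the gene's strand. Capitals mark matches to the gamma-activated site TTCNNNGAA, which reads the same on both strands, or to the interferon-stimulated response element, searched as GAAA, any 2 bases and GAAA, or as TTTC, any 2 bases and TTTC for the opposite strand.
Ifi47, chr11:49076477-49076586, plus strand: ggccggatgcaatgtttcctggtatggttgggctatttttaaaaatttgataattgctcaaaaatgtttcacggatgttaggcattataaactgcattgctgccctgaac
Irgm2, chr11:58214867-58214976, plus strand: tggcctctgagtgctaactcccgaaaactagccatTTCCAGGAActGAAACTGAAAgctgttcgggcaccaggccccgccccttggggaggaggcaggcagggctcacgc
Igtp, chr11:58199446-58199555, plus strand: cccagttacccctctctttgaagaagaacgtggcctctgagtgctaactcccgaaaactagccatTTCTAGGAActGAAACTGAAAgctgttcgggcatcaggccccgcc
Irgm1, chr11:48871421-48871530, minus strand: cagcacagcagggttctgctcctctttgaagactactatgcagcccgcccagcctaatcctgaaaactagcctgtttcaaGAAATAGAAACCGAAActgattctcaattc
Gbp7, chr3:142530226-142530335, plus strand: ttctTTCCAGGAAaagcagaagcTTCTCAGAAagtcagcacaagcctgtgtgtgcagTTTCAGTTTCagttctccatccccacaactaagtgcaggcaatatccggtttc
Gbp2, chr3:142620553-142620662, plus strand: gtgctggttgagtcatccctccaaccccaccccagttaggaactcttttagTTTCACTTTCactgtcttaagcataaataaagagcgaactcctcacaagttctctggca

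Irgm2 and Igtp lie next to each other and have 61 identical bases in a row in their windows. Igtp has a gamma-activated site from -45 to -37 and a response element from -34 to -25, and Irgm2 has the same pair from -75 to -67 and from -64 to -55. Irgm1 has 2 overlapping response elements between -30 and -15, and Ifi47 has no match in its window of 300 bases. Over all 32851 RefSeq windows of that length, 250 bases before to 50 after a start, a gamma-activated site was found in 8.3%, a response element in 3.44% and both in 0.45%. A match is a match of letters and not a measured binding site. Of the 10 genes, 8 had such a window, and Gbp6 and Iigp1 were not among them.

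The deposited values were read as log2. Most probe sets of this table hold nearly the same value in all mice, and 7791 ranged over more than 0.01 across the 6 arrays. Those are called varying below, and the rest, with a range of up to 0.01, shared. A shared value is not read as showing whether the gene's level differed between the mice. Of the 13 member probe sets 8 varied, from 6 genes, and 5 were shared. The varying one with the smallest range was that of Iigp1 with 0.13, and the shared one with the largest range was that of Gbp7 with 0.00018. Medians of the 6 arrays lay between 6.306 and 6.308, and the hepatocyte product Ttr read 13.90 to 13.93 in 6C+4CP livers and 13.87 to 13.89 in 10C livers.

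Most of the varying GTPases had lower values in livers of mice fed 6C+4CP. Of the 8 varying member probe sets 7 had a lower mean, against 52.1% of all varying probe sets. In 4 of the 8 every 6C+4CP mouse was below every 10C mouse, which holds for 9.11% of all varying probe sets, and 0 of the 8 were separated in the other direction. Because the members were picked for this gap, these counts describe them and nothing is read from them. The median difference over the 8 was -0.50 on the log2 scale, 6C+4CP minus 10C, and over all varying probe sets it was -0.0040. In limma, fitted over all probe sets with Benjamini-Hochberg adjustment, 0 of the 13 passed an adjusted p of 0.05. In the same fit 2 had an unadjusted p under 0.05, as did 6.42% of all probe sets, most of which were shared. Of all probe sets 0.242% were called, and 0.0933% were called lower.

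**Figure D1:**
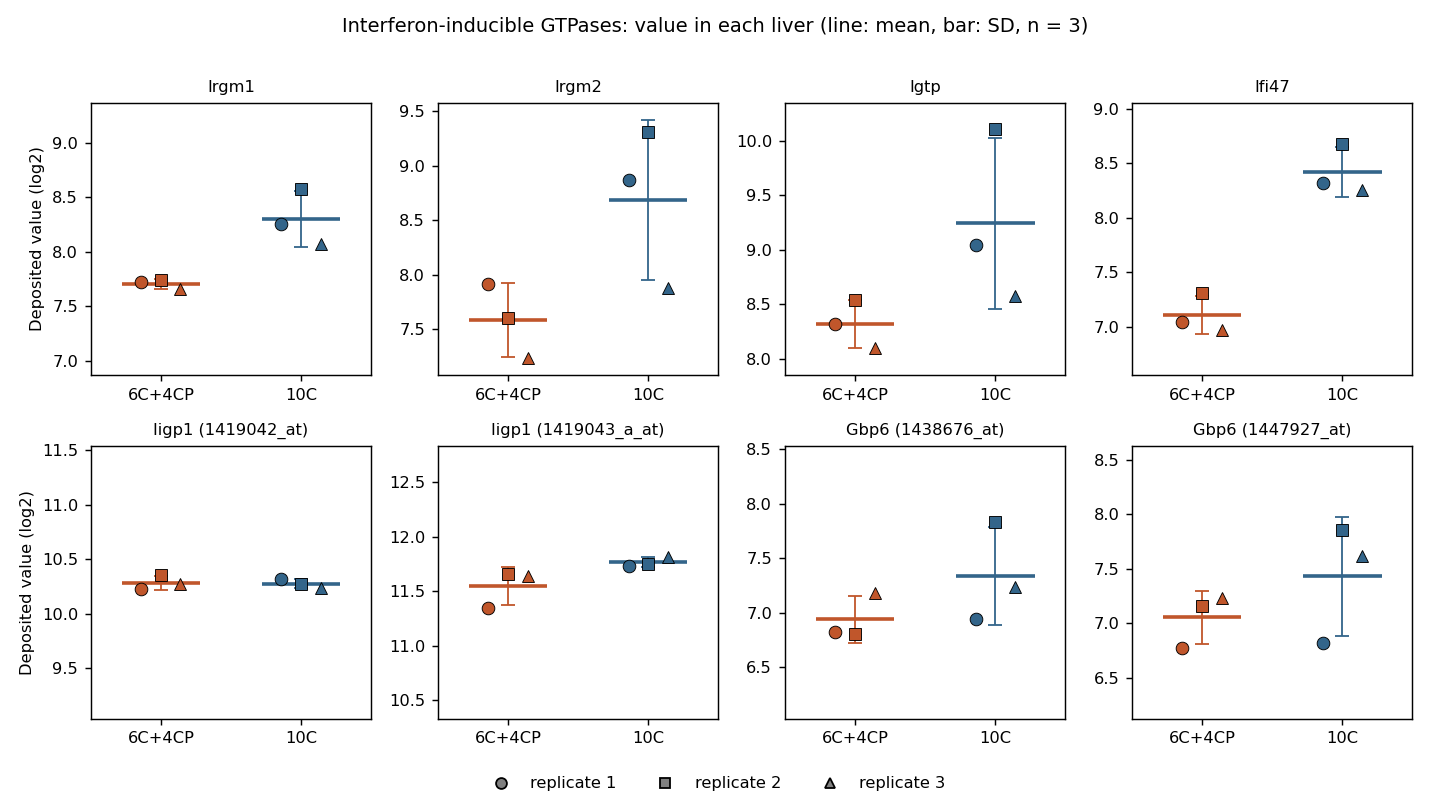
Deposited log2 value of each varying GTPase probe set (vertical axis, the same span of 2.5 in every panel) in the 3 livers of 6C+4CP and the 3 livers of 10C (horizontal axis). Symbols mark the replicate number, lines the mean and bars the SD (n = 3); Ifi47 and Irgm1 separate the diets clearly, and the square of 10C replicate 2 is the highest point for Irgm1, Irgm2, Igtp, Ifi47 and both probe sets of Gbp6.

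Ifi47, also named Irgd, an effector of the immunity-related family, read 7.04, 7.31 and 6.97 in the 6C+4CP mice and 8.32, 8.68 and 8.26 in the 10C mice. The diets were 0.95 apart at their nearest mice. Its mean was 7.11 ± 0.18 in 6C+4CP and 8.42 ± 0.23 in 10C (SD, n = 3 each), a difference of -1.31 (SE 0.16) or 2.48 times lower. This was the widest gap among the members.

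Irgm1, a regulator needed for the clearance of mycobacteria in mice, read 7.72, 7.74 and 7.66 in 6C+4CP livers and 8.26, 8.58 and 8.07 in 10C livers. The 6C+4CP mice lay close together (SD 0.043) and the 10C mice were spread wider (SD 0.26), with a space of 0.33 between the groups. The difference was -0.60 (SE 0.15), or 1.51 times lower.

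Igtp, also named Irgm3, a regulator found on the endoplasmic reticulum and on lipid droplets, read 8.31, 8.54 and 8.10 in 6C+4CP livers and 9.04, 10.10 and 8.57 in 10C livers. The groups did not overlap, but only 0.034 lay between the lowest 10C mouse and the highest 6C+4CP mouse. Replicate 2 of 10C stood 1.06 above the next mouse, and the difference of the means was -0.92 (SE 0.46).

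Irgm2, the regulator found mainly on the Golgi apparatus, read 7.92, 7.60 and 7.24 in 6C+4CP livers and 8.87, 9.31 and 7.88 in 10C livers. The mean difference of -1.10 (SE 0.46), 2.14 times lower, came with overlap, because 10C replicate 3 was 0.036 below the highest 6C+4CP mouse. Without that mouse the groups did not overlap and the difference was -1.50.

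Iigp1, also named Irga6, the effector with a hepatocyte promoter, had 2 probe sets that differed from each other. Probe set 1419043_a_at read 11.35, 11.66 and 11.64 in 6C+4CP livers and 11.74, 11.75 and 11.82 in 10C livers, a difference of -0.22 (SE 0.10) without overlap. Probe set 1419042_at read 10.23, 10.36 and 10.27 in 6C+4CP livers and 10.31, 10.27 and 10.24 in 10C livers, a difference of 0.0095 (SE 0.043) with overlap, smaller than the spread between mice. For the first of them the gap was -0.12, or 54.4% of its size, without 6C+4CP replicate 1, the lowest mouse.

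Gbp6, a guanylate-binding protein, also had 2 varying probe sets. Probe set 1447927_at read 6.78, 7.16 and 7.23 in 6C+4CP livers and 6.82, 7.86 and 7.62 in 10C livers, and 1438676_at read 6.83, 6.81 and 7.19 in 6C+4CP livers and 6.94, 7.83 and 7.24 in 10C livers. The differences were -0.38 (SE 0.34) and -0.40 (SE 0.28), and in both the groups overlapped. Gbp6 has the close relative Gbp10 beside it, and which of them these probe sets measured was not tested.

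The other 5 probe sets were shared, and for Gbp2, Gbp3 and Gbp7 these values do not show whether the diets differed. Gbp2, which is needed in mice for resistance to Toxoplasma, stood at 6.08 on 1418240_at and at 5.90 on 1435906_x_at in all 6 mice. Gbp3 stood at 6.57, and Gbp7, which acts in oxidative killing of bacteria in mouse macrophages, at 7.37 on 1425156_at and 7.68 on 1434380_at. The 4 genes without overlap on a probe set were Ifi47, Irgm1, Igtp and Iigp1, the last on 1419043_a_at only. All belonged to the immunity-related family. Among the guanylate-binding proteins only Gbp6 varied, with overlap on both probe sets, so the 2 families are not compared.

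The gap was carried to very different degrees by 10C replicate 2. That mouse had the highest value of all 6 mice in 6 of the 8 varying member probe sets, which holds for 26.2% of all varying probe sets. Without it Ifi47 kept 90.0% of its difference (-1.18 of -1.31) and Irgm1 76.9% (-0.46 of -0.60). Irgm2 kept 71.6% (-0.79), while Igtp kept 53.3% (-0.49). The Gbp6 probe sets kept 43.3% (-0.16, 1447927_at) and 38.0% (-0.15, 1438676_at), so for Gbp6 and Igtp this mouse moved the value by over 1.5 times. Iigp1 on 1419043_a_at did not depend on it, with -0.23. Without that mouse 7 of the 8 were lower and the median over the 8 was -0.35. Groups that do not overlap cannot come to overlap when a mouse is left out, so nothing is read from the 4 probe sets that then did not overlap.

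The other 10C mice pulled in other directions. Without 10C replicate 3, the lowest 10C mouse for Ifi47, Irgm1, Irgm2 and Igtp, the differences were wider, at -1.39, -0.71, -1.50 and -1.26. Without 10C replicate 1 the difference of Gbp6 was -0.68 on 1447927_at and -0.60 on 1438676_at, and both probe sets then had no overlap. On the side of 6C+4CP, leaving out replicate 3 left no overlap for Gbp6 on 1438676_at (-0.52), and leaving out replicate 1 brought Gbp6 on 1447927_at to -0.24. A mean was taken over 1 probe set for each of the 6 varying genes, with 1419043_a_at for Iigp1. It was 8.19, 8.33 and 8.14 in the 6C+4CP mice and 8.84, 9.38 and 8.70 in the 10C mice. Each 10C mouse was above each 6C+4CP mouse on this mean. The members were picked for this gap, so nothing is read from that separation.

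**Figure D2:**
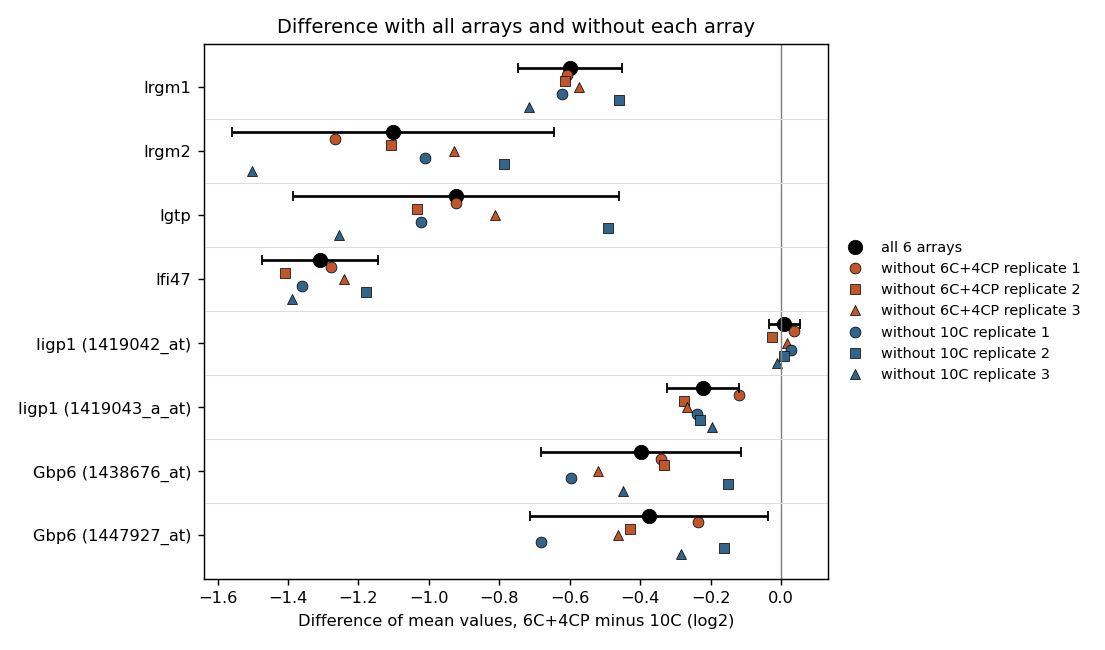
Difference of mean log2 values, 6C+4CP minus 10C (horizontal axis), for each varying GTPase probe set (vertical axis), with all 6 arrays (black, bar: SE) and without each array in turn (coloured symbols). Without 10C replicate 2 (blue squares) Igtp moved to -0.49 and Gbp6 to -0.16 and -0.15, while Ifi47 stayed at -1.18.

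Values of the acute phase, the liver's output of plasma proteins in inflammation, are given because the same 10C mouse stood apart in them. Saa1, serum amyloid A, read 7.87, 7.54 and 9.13 in the 6C+4CP mice and 7.68, 14.03 and 8.84 in the 10C mice, and its relative Saa2 read 6.68, 6.60 and 7.31 in the 6C+4CP mice and 6.73, 11.52 and 6.86 in the 10C mice. For both genes replicate 2 of 10C was far above the other 5 mice, and their means differed by -2.0 (SE 1.97) and -1.50 (SE 1.56), or by -0.082 and 0.073 without that mouse. Of the 18 acute phase genes measured, 15 varied, 11 lower and 4 higher in 6C+4CP, 0 were called by limma, and 10 of the 15 had their highest 10C value in replicate 2, against 41.8% of all varying probe sets. Orm2, another acute phase protein, had a higher mean in 6C+4CP (0.63, SE 0.26, with overlap), and Saa4 a lower one (-0.39, SE 0.22, with overlap). Itih3 differed by -0.13 (SE 0.070) and Fgb, a fibrinogen chain, by -0.12 (SE 0.080). Their part in the GTPase values was not tested, and the GTPase values without that mouse stand above.

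The regulators and other targets of interferon signalling were read from lists of genes, with the brightest probe set standing for each gene. Of all varying probe sets 52.1% had a lower mean in 6C+4CP, 9.11% were lower without overlap and 10.8% higher without overlap. These shares belong beside the counts of each list. Over the 7 lists of pathway and acute phase genes limma called 0 of 129 measured genes after adjustment over all probe sets. In that fit 6, or 4.65%, had an unadjusted p under 0.05, against 6.42% of all probe sets. Both shares count shared values, and 65 of the 129 genes varied. Fitted over the 7791 varying probe sets alone, limma gave 1140 of them an unadjusted p under 0.05. Nothing is read from these shares. Among interferons, receptors and kinases 3 of 17 measured genes varied, 1 lower and 2 higher. Ifng, the gene of interferon gamma, had a shared value of 5.72. The receptor subunit Ifnar1 differed by -0.029 (SE 0.012), without overlap, Ifna4 by 0.031 (SE 0.026) and Il18, a cytokine that drives interferon gamma production, by 0.078 (SE 0.22). Without 10C replicate 2 Il18 turned to -0.036, which made 2 of the 3 lower.

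Of the STATs, IRFs and their inhibitors 5 of 17 measured genes varied, all 5 lower. Without overlap were 3 of them, Irf3, Usp18 and Socs1, against 9.11% of all varying probe sets. For Usp18 and Socs1 the groups nearly touched. Usp18, a protease that damps type I interferon signalling and is itself induced by it, read 6.15, 6.88 and 6.60 in 6C+4CP livers and 6.90, 7.98 and 6.90 in 10C livers. Its difference was -0.72 (SE 0.41), and -0.36 without 10C replicate 2. The nearest mice of the 2 diets were at 6.88 and 6.90. Irf9, the DNA-binding partner of STAT dimers in the response to type I interferon, differed by -0.36 (SE 0.16) with overlap, and Irf3, a sensor-activated factor, by -0.17 (SE 0.075) without overlap. The inhibitor Socs1 differed by -0.013 (SE 0.0060), with the highest 6C+4CP mouse at 6.1658 and the lowest 10C mouse at 6.1665. Irf1, a factor induced by interferon gamma, had a shared value of 7.87.

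Antiviral genes induced chiefly by type I interferon were lower in most cases: 16 of 29 measured varied, 15 lower and 1 higher. By limma 0 were called, and 5 were lower without overlap, against 9.11% of all varying probe sets. The median difference of the 16 was -0.22, and -0.099 without 10C replicate 2. That mouse was the highest 10C mouse for 11 of the 16, against 41.8% of all varying probe sets. Rtp4, a receptor transporter protein induced by interferon, read 7.66, 7.95 and 7.51 in 6C+4CP livers and 8.69, 9.06 and 7.99 in 10C livers, a difference of -0.87 (SE 0.33). Ddx58, the RNA sensor RIG-I, differed by -0.28 (SE 0.092), Ifi27 by -0.40 (SE 0.17) and Oas1a, which makes the activator of RNase L, by -0.045 (SE 0.017).

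The other genes induced by interferon gamma, mostly of antigen presentation, had 12 varying of 23 measured, 12 lower and 0 higher. By limma 0 were called, and 2 were lower without overlap, against 9.11% of all varying probe sets. Their median was -0.27, and -0.24 without 10C replicate 2. The class I gene H2-D1 differed by -0.31 (SE 0.095) and the class II gene H2-Ab1 by -0.34 (SE 0.11), both without overlap. The peptidase Lap3 differed by -0.31 (SE 0.12) and the peptide transporter Tap1 by -0.12 (SE 0.051), both with overlap. For 2 of the 12 the highest 10C mouse was replicate 2, against 41.8% of all varying probe sets. For 8 of the 12 it was replicate 3, for which no share of all varying probe sets was counted, so nothing is read from it.

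**Figure D3:**
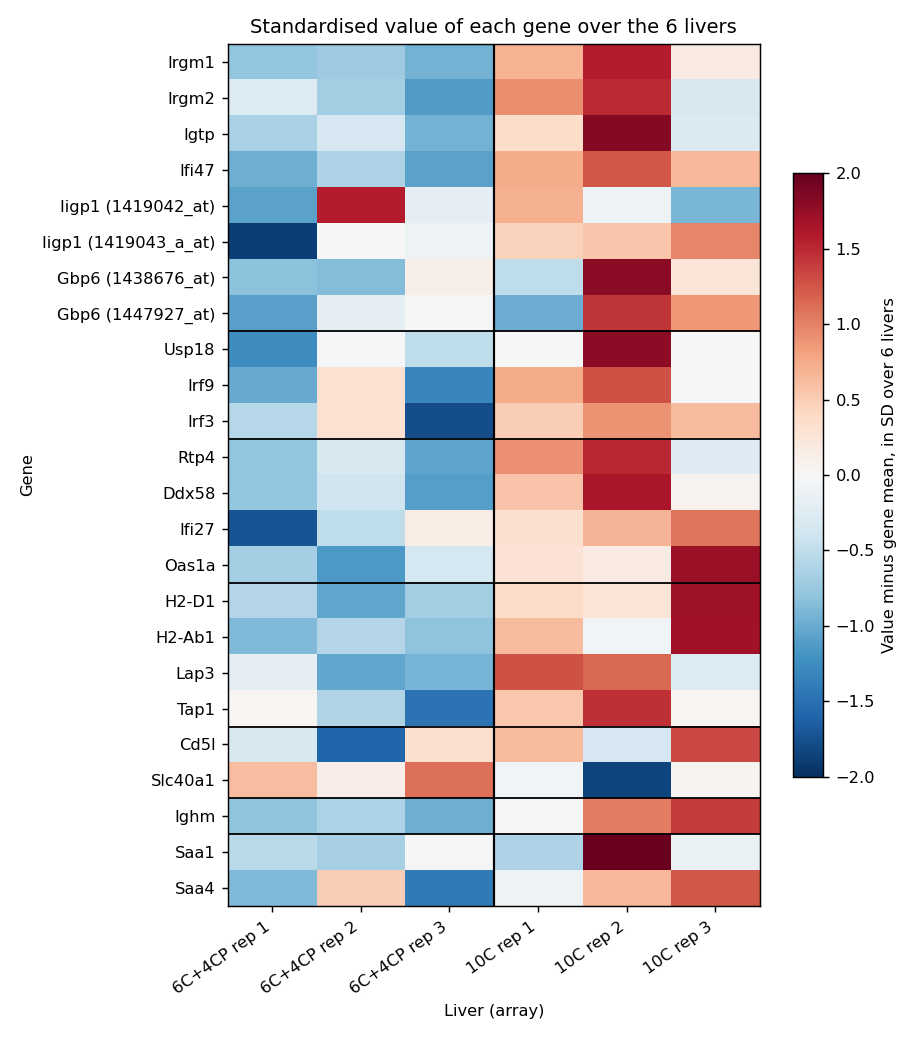
Standardised value (colour: value minus the gene's mean, in SD over the 6 livers) of the GTPase probe sets and of named genes of the interferon, cell type and acute phase lists (rows, groups divided by lines) in each liver (columns). Irgm1, Irgm2, Igtp, Ifi47, Gbp6, Usp18, Rtp4, Ddx58 and Saa1 are darkest red in 10C replicate 2, while H2-D1, H2-Ab1 and Oas1a are so in 10C replicate 3.

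Other GTPases of these families and related inducible ones had 8 measured genes, of which 5 varied, 3 lower and 2 higher, with 0 called and 0 without overlap. Gm4951, a gene related to Iigp1, read 10.01, 10.39 and 9.51 in 6C+4CP livers and 10.46, 10.40 and 10.30 in 10C livers, a difference of -0.42 (SE 0.26) that came with a wide spread in 6C+4CP. Gm12185 differed by -0.029 (SE 0.062), Gbp8 by 0.039 (SE 0.058) and Irgq by 0.041 (SE 0.057), all within the spread between mice.

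Genes of the autophagy and ubiquitin proteins that help to direct the GTPases to vacuoles had a median that changed sign without 10C replicate 2. Their list also holds a few inflammasome genes, all with shared values. Of 17 measured genes 8 were shared and 9 varied, 2 lower and 7 higher, with 0 called. Without that mouse 5 were lower and 4 higher, and the median was -0.020 in place of 0.038. Map1lc3b, an autophagy membrane protein, read 10.50, 10.59 and 10.62 in 6C+4CP livers and 10.28, 10.29 and 10.08 in 10C livers, a difference of 0.35 (SE 0.078) and the only gene of this list without overlap. Its relative Gabarap differed by -0.079 (SE 0.053), Becn1 by 0.071 (SE 0.041) and the ubiquitin ligase Trim21 by -0.085 (SE 0.075).

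**Figure D4:**
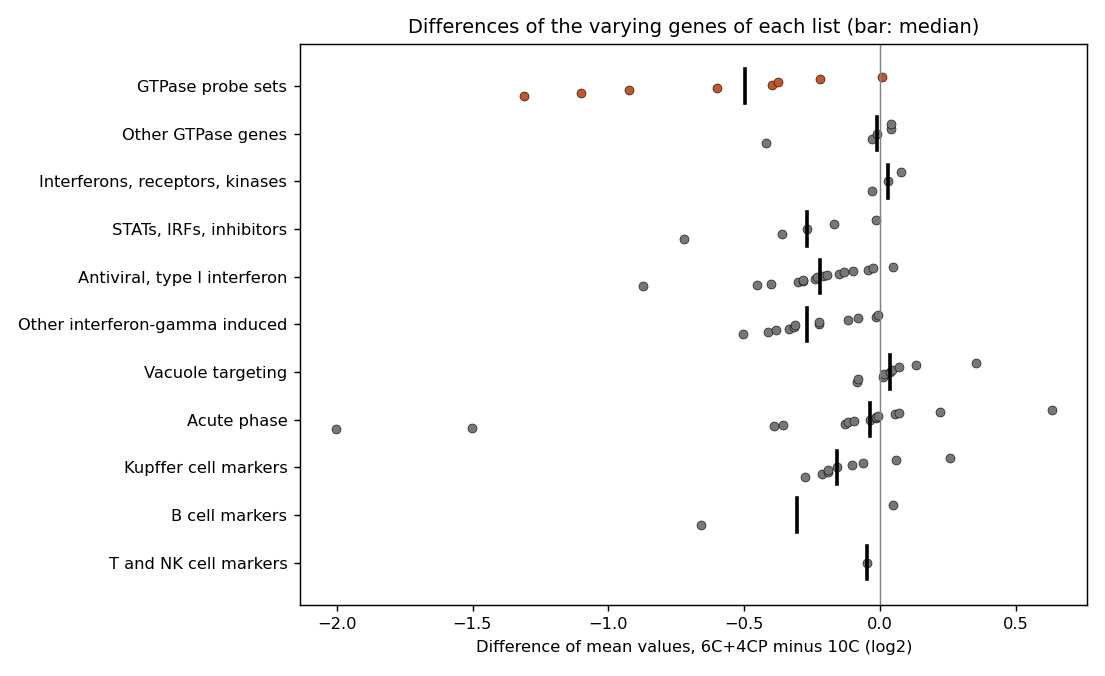
Difference of mean log2 values, 6C+4CP minus 10C (horizontal axis), of each varying GTPase probe set (orange) and of each varying gene of the lists (grey), with the median of each list as a bar. The GTPase median lies at -0.50, those of the antiviral and other interferon gamma genes at -0.22 and -0.27, and that of the vacuole targeting genes at 0.038, or at -0.020 without 10C replicate 2.

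Immune cells of the liver also express these GTPases, and in pieces of liver fewer cells of a type and less RNA per cell cannot be told apart. Of 14 Kupffer cell and macrophage markers 9 varied, 7 lower and 2 higher, with 0 called. Their summed level (log2 of the summed values) was 12.08 to 12.44 in 6C+4CP and 12.05 to 12.48 in 10C. All 9 had their highest 10C value in replicate 3. How many of all varying probe sets did so was not counted, and the part of these cells in the GTPase values was not tested. Cd5l differed by -0.28 (SE 0.19) and the iron exporter Slc40a1 by 0.26 (SE 0.14), higher without overlap. Without 10C replicate 2 Slc40a1 differed by 0.13, and the median of the 9 was -0.28 in place of -0.16. Of 5 B cell markers 2 varied: Ighm, the mu heavy chain, differed by -0.66 (SE 0.17) without overlap and Cd22 by 0.050 (SE 0.055), or -0.0017 without 10C replicate 2. The summed level of the 5 was 9.30 to 9.37 in 6C+4CP and 9.50 to 9.85 in 10C. These did not overlap and lay in the direction of the GTPases. That gap came from Ighm, because Cd22 had a higher mean in 6C+4CP and the other markers were shared. Ighm read 8.66, 9.08 and 9.22 in the 10C mice. The part of the B cell markers in the result was not tested.

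Among 14 T and NK cell markers only Cd4 varied (-0.047, SE 0.037), with a summed level of 10.08 to 10.09 in 6C+4CP and 10.09 in 10C, and the call of Cd2 by limma rests on a shared value. All 6 neutrophil and all 4 cholangiocyte markers measured had shared values. Of 8 sinusoidal endothelium markers 2 varied, Fcgr2b by 0.11 (SE 0.12), or -0.0021 without 10C replicate 2, and Stab1 by -0.070 (SE 0.042), and of 7 stellate markers 3 varied, among them Dcn by -0.056 (SE 0.067) and Col1a1 by -0.0085 (SE 0.019). Of 7 hepatocyte markers 6 varied, 3 lower and 3 higher, with 0 called and 3 at an unadjusted p under 0.05. Cps1, an enzyme of the urea cycle, differed by -0.27 (SE 0.041) and Apoa1, a lipoprotein, by -0.11 (SE 0.024), both lower without overlap. Hnf4a, a transcription factor of hepatocytes, differed by 0.40 (SE 0.13) and Ttr by 0.032 (SE 0.012), both higher without overlap. The part of these markers in the GTPase values was not tested. As a sign of RNA quality, the 3′ minus 5′ value of the actin control was 1.15 to 1.69 in 6C+4CP and 1.18 to 1.27 in 10C. The highest was that of 6C+4CP replicate 2, and its part in the result was not tested.

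The GTPases also resembled each other from mouse to mouse. Over the 6 arrays Irgm1, Irgm2, Igtp and Ifi47 correlated with each other at r between 0.84 and 0.96. Iigp1 correlated with these 4 at 0.32 to 0.73 and Gbp6 at 0.28 to 0.57. These coefficients share the gap between the diets and are descriptions over 6 points.

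Genes outside the lists that followed the mean profile of the 6 varying GTPases most closely came from 6517 varying probe sets. The closest 10 had r from 0.984 to 0.989 over 6 arrays, and the median over all varying probe sets was 0.081. As the highest picked from 6517 they were bound to be high. The coefficients also share the gap between the diets, so nothing is read from their size. In order they were Nnmt, which methylates nicotinamide, Hyou1 and Dnajc3, chaperones of the endoplasmic reticulum, Tbcb, a tubulin folding cofactor, BC031181, Hsp90aa1, a cytosolic chaperone, Dnpep, an aminopeptidase, 1810014B01Rik, Zfand4 and Cct3, a chaperonin subunit. Nnmt read 5.98, 6.51 and 6.02 in 6C+4CP livers and 7.68, 8.49 and 7.56 in 10C livers. Within the lists the hepatocyte markers Hnf4a, Apoa1 and Cps1 had r of -0.98, 0.94 and 0.83, and the B cell marker Ighm 0.84. Among interferon targets Ddx58 had 0.97, Usp18 0.93 and Rtp4 0.92. Of all varying probe sets 8.46% had r over 0.8. The median was 0.77 over varying antiviral genes (-0.13 to 0.97) and 0.57 over the other interferon gamma genes (0.11 to 0.81). Over Kupffer cell markers it was 0.047 (-0.91 to 0.23). These coefficients share the diet gap too, and nothing is read from them.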

How the data were processed

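Liver RNA of 6 mice, grouped by the sample titles, was measured on 1 Affymetrix 3′ array per mouse. The values analysed are those the authors deposited in the table of the series, read as log2 from their range (4.76 to 14.48). The submitters' processing notes name R 2.7.2. How background and probes were combined, and the base of the logarithm, is not given in the sources used. The files name no build. Leaving out 64 array controls left 45037 probe sets, of which the platform annotation gave 34945 exactly 1 symbol, 932 several and 9160 none.

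The 6C+4CP and 10C arrays entered lmFit and eBayes of limma 3.58.1 (R 4.3.3) without covariates, adjusted by Benjamini-Hochberg over all probe sets, and the code was tested on simulated data. Of the 109 calls, 103 were on shared values. SE values come from this fit. With 3 arrays a diet, array number limits precision. Members and lists were chosen with earlier results of these data known. Named were all members, the varying genes of smallest p (at most 4 for a pathway list, 2 for a cell type list), Ifng, Irf1 and Saa1, and the 10 genes most alike in profile. Cd2, Ttr, Hnf4a, Saa2 and the list genes named under alternatives were named after their values were seen. The alternatives were leaving out each array, a replicate block, quantile normalization, median centring, the brighter 50% of probe sets, varying probe sets alone, a range over 0.1, 1 probe set for each gene, and a trend with robust estimation.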

Additional observations from a re-analysis of the deposited data

How the results depend on the processing

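The 109 probe sets called between the diets were mostly shared values, and the count depended on the processing. Without each array in turn it ran from 285 to 398. It was 3 with the replicate number as a block, 1 after quantile normalization, and 0 after median centring, among the brighter probe sets, among varying probe sets alone and with an intensity trend and robust estimation, where limma gave 1202, 1842, 1140 and 2685 unadjusted p under 0.05. Of the 13 GTPase probe sets 0 were called under each of these alternatives. Genes called on the pathway lists ran from 0 to 2 without each array in turn and came to 1 with the replicate block, and all of these (Gbp2b, Oas3, Atg16l1, Nlrp3 and Ifngr1) had shared values. The median difference of the varying GTPase probe sets ran from -0.65 to -0.35 without each array, was -0.76 with 1 probe set for each gene, and was -0.50 under the other alternatives. Several of these fits cannot move a difference of means between equal groups. Without 10C replicate 2 the differences of Igtp (-0.49) and Gbp6 (-0.16 and -0.15) kept the smallest shares of their size. Deviations of mice with the same replicate number correlated at 0.48, -0.089 and 0.085. Without the same values for mice of different numbers, these cannot show whether the numbers mark a pairing. The sample titles give the numbers only, so the block is given as an alternative and not as a paired design.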
